A study of Mus musculus with 6 samples.

Results

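The 28 genes described here encode enzymes and regulators of cholesterol and fatty acid synthesis, and they were taken by symbol from the 55536 gene rows of the deposited count tables. All 28 had counts in every library and passed the filter on low counts. By role, 7 belong to the mevalonate steps, 11 to the sterol steps, 4 to regulation and transport, and 6 to fatty acid synthesis, and the list does not cover every step of these pathways. The libraries are total RNA of 6 tumors that B16 cells, a pigmented mouse melanoma line, formed under the skin of C57BL/6J mice after about 100000 cells had been injected. In 3 tumors the cells carried a vector control and in 3 an ATM knockout (ATM KO), ATM being a protein kinase of the DNA damage response. Tumors were taken on day 13 in both groups. The age of the mice, the way ATM was disrupted, whether the knockout cells were 1 clone and whether a mouse gave more than 1 tumor are not stated in the labels. Host cells within a tumor keep their own Atm gene in both groups. The p-values below describe variation among these 6 tumors, which may be technical, and the genotype cannot be told apart from the cell line that carries it.

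Cholesterol is built from acetyl-CoA. The mevalonate pathway turns acetyl-CoA into farnesyl diphosphate, and the sterol steps join farnesyl units into squalene, close the rings and trim lanosterol to cholesterol. Fatty acids start from the same acetyl-CoA, which ATP-citrate lyase releases in the cytosol. The transcription factors SREBP-2 and SREBP-1 raise the genes of both pathways when sterols in the endoplasmic reticulum run low, and INSIG proteins retain their precursors there when sterols are plentiful. Tumor cells often make their own fatty acids and sterols, and fat cells are a rich source of transcripts for fatty acid synthesis.

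Counts on genes ranged from 22101124 to 29037715 per library, and 15696 genes passed the filter on low counts. Levels are CPM, a gene's count relative to the library total, with totals scaled by the trimmed mean of M values (TMM). Fold changes are ATM KO relative to vector control from edgeR's quasi-likelihood test, called at a Benjamini-Hochberg adjusted p below 0.05 over all genes tested. Melanocyte markers were present in every tumor, all 10 of them and with a summed level of 19702 to 28275 CPM, while the 10 keratinocyte markers summed to at most 4.92 CPM. Atm transcripts were at 95.5 to 111 CPM in vector control and 97.2 to 132 CPM in ATM KO tumors, and counts over a whole gene do not check whether its protein is lost. Vector control tumor 1 stood apart in fibroblast and macrophage markers: its fibroblast markers summed to 496 CPM, against 1656 to 3455 CPM in the other 5 tumors. Its macrophage markers summed to 486 CPM, against 873 to 1309 CPM.

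Of the 28 genes, 3 rose in ATM KO tumors, all of them in the sterol steps, and none fell. They were Hsd17b7, Tm7sf2 and Sqle. The 3 are 10.7% of the genes, and over all genes tested 4.96% were called, 2.21% higher and 2.75% lower. With an unadjusted edgeR p under 0.05, 6 of the 28 lay above 0 and 3 lay below, against 10.6% and 12.3% of all genes. In 17 of the 28 the log2 fold change was above 0, as it was in 49.1% of all genes. The groups did not overlap in 4 of the 28 with ATM KO above and in 3 with ATM KO below. These counts are near the shares over all genes tested, 14.3% and 15.4%. DESeq2 called 4 higher and 1 lower, with 6.50% and 8.12% called among all genes it gave an adjusted p, and limma-voom called 2 higher and 0 lower, with 1.97% and 2.41%. The median log2 fold change over the 28 genes was 0.12, beside -0.01 over all genes tested. By role it was 0.35 in the mevalonate steps, 0.19 in the sterol steps, -0.04 in regulation and transport and -0.09 in fatty acid synthesis. In these whole-tumor libraries, a change in the share of a cell type and a change of RNA per cell cannot be told apart. Some marker lists of host cell types had sums or genes that differed between the groups without overlap. Endothelial markers summed to 513 to 671 CPM in vector control and 434 to 471 CPM in ATM KO tumors, with all 10 log2 fold changes below 0 (median -0.50). In 5 of the 10 every ATM KO tumor was below every control, as it was in 15.4% of all genes tested. Lymphocyte markers summed to 26.6 to 51.2 and 38.6 to 78.3 CPM. Of the 8 tested, 4 were higher in every ATM KO tumor than in every control, as were 14.3% of all genes tested. Among the 4 were Cd8a, Cd3e (log2 fold change 0.92) and Cd3d (0.98). Of these lists edgeR and limma-voom called 0 genes (4 endothelial genes lower and 3 lymphocyte genes higher at an unadjusted edgeR p under 0.05). DESeq2 called 2 endothelial genes lower and 2 lymphocyte genes higher. Sebaceous markers summed to 36.3 to 40.8 CPM in vector control and 41.9 to 54.4 CPM in ATM KO tumors. Mgst1 made up nearly the whole of these sums. The other 8 sebaceous markers summed to 0.885 to 1.74 and 1.27 to 1.86 CPM, which overlapped. In 2 of 2 sebaceous genes tested and 2 of 12 skeletal muscle genes, every ATM KO tumor was above every control (14.3% of all genes tested). The sums of the muscle markers overlapped. EdgeR and limma-voom called 0 sebaceous and 0 muscle genes, and DESeq2 called 1 muscle gene higher. The part of these cells in the values of the 28 genes was not tested.

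**Figure D1:**
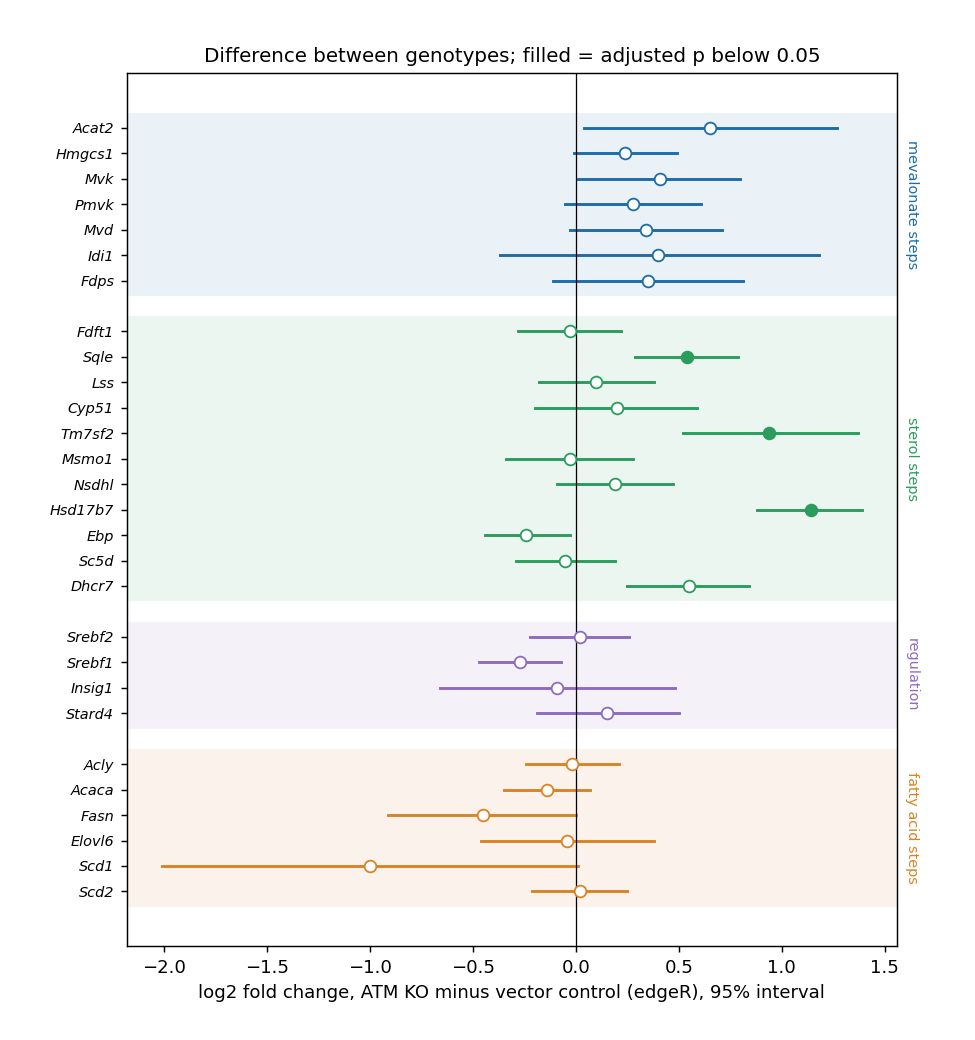
Log2 fold change of each of the 28 genes, ATM KO minus vector control, on the x axis, grouped by role, with the 95% interval as a line and called genes as filled points (edgeR, 3 tumors per group). All 7 mevalonate genes lie above 0 without being called, and Hsd17b7, Tm7sf2 and Sqle are the called genes.

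The calls depended on single libraries. Without vector control tumor 2, ATM KO tumor 1 or ATM KO tumor 2, none of the 28 was called, and over all genes the test then called 19, 0 and 22 higher and 9, 2 and 20 lower. Without vector control tumor 3, Hsd17b7 alone was called, with 0.344% of all genes called higher and as many lower. Without ATM KO tumor 3, Hsd17b7 and Sqle were called, with 0.603% of all genes called higher and 0.616% lower. Without vector control tumor 1, Hsd17b7, Tm7sf2 and Dhcr7 were called higher and Scd1 lower, with 3.64% and 3.86% of all genes called in those directions. The fold changes of the 3 genes moved less than their calls: over the 6 fits that each leave out 1 tumor, the log2 fold change lay between 1.05 and 1.22 for Hsd17b7, between 0.77 and 1.08 for Tm7sf2 and between 0.47 and 0.65 for Sqle.

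The promoters of these genes are shown first for a sequence feature that many of them shared. RefSeq promoters (GRCm38.p6) were at hand for 22 of the 28 genes, and the 250 bases before each start were searched on both strands for the Y box CCAAT, which the factor NF-Y binds, and for TCACNCCAC, a core of the sterol regulatory element that SREBPs bind. The motifs do not overlap each other's letters in the stretches printed. A Y box lay in the windows of 18 of the 22 genes (81.8%), compared with 37.5% of all 27025 genes with a promoter entry and 40.4% of the 10600 tested protein-coding genes among them. Of the genes searched, it was present in 5 of 6 mevalonate, 9 of 9 sterol and 3 of 3 regulation and transport genes. Of 4 fatty acid genes searched, 1 held it, Fasn. Fdps, Fdft1, Sqle, Scd1, Scd2 and Stard4 had no promoter entry and were not searched. The sterol element core was found in Hmgcs1 alone of the 22 genes (4.55%), and in 1.22% of all genes and 1.27% of the tested protein-coding genes. A match of letters is a description, not a site shown to be bound. 3 promoters are printed as examples, with both motifs in capitals: Hmgcs1 for the only sterol element core, Mvk for 5 Y boxes, and Hsd17b7 for the largest fold change of the 28 genes. The Mvk and Hsd17b7 stretches are trimmed to bases outside annotated exons.
Hmgcs1: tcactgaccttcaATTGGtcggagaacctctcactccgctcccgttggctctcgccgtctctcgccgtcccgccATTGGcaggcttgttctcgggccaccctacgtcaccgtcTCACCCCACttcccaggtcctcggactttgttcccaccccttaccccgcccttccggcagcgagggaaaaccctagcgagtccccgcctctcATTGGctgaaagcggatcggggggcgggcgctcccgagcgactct
Mvk: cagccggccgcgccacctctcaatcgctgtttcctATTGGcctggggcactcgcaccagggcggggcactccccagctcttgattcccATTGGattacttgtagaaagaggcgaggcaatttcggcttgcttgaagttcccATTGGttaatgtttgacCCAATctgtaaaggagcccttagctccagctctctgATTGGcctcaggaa
Hsd17b7: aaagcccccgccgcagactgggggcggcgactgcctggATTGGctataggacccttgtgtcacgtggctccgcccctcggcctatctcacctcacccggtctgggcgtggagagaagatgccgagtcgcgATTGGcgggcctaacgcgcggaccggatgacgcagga
The Hmgcs1 stretch (chr13:119690101-119690350, plus strand) holds the sterol element core starting 137 bases before the RefSeq start, between Y boxes that start 176 and 45 bases before it, and a further Y box starts at 237 bases. The Mvk stretch (chr5:114444061-114444268, plus strand) has its Y boxes starting 173, 120, 67, 50 and 14 bases before the start. The Hsd17b7 stretch (chr1:169969242-169969408, minus strand) has Y boxes starting 165 and 73 bases before the start. Its last printed base lies 37 bases before the start.

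The 7 mevalonate genes were on average higher in ATM KO tumors, by 0.24 to 0.65 on the log2 scale, and none passed the edgeR test (unadjusted p under 0.05 in 2 higher and 0 lower genes, and 0 called by DESeq2 or limma-voom). In each of the 7, ATM KO tumors 1 and 2 lay above all 3 vector control tumors, and ATM KO tumor 3 lay within the control range. The percentage of tested genes whose groups did not overlap was 14.3% with ATM KO above and 15.4% with ATM KO below, and 0 of these 7 were among them. Acat2, the cytosolic thiolase that joins acetyl-CoA units at the entry to the pathway, was at 15.4, 24.6 and 24.1 CPM in vector control tumors 1, 2 and 3 and at 37.7, 39.1 and 24.2 CPM in ATM KO tumors 1, 2 and 3. The low value of vector control tumor 1 and the high values of ATM KO tumors 1 and 2 set the difference, and ATM KO tumor 3 was inside the control range. For Acat2 the log2 fold change was 0.65 with an SE of 0.25 (95% interval 0.04 to 1.27, edgeR adjusted p = 0.195), and SEs follow ± for the other log2 fold changes. Of the 50-base stretches in Acat2 transcripts, 39.1% also occur in transcripts of Acat3, so the reads counted for Acat2 may be incomplete. Acat3 itself was at 0.132 ± 0.0925 CPM in vector control tumors (SD, n = 3).

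Hmgcs1, which makes HMG-CoA, had the highest level per exon length of the mevalonate genes. It was at 139, 144 and 150 CPM in vector control tumors and at 182, 184 and 145 CPM in ATM KO tumors (log2 fold change 0.24 ± 0.10, adjusted p = 0.237 in edgeR). ATM KO tumors 1 and 2 were above the controls and ATM KO tumor 3 fell among them. Mvk, which phosphorylates mevalonate, was at 19.9, 21.1 and 21.9 CPM in vector control tumors and at 31.8, 30.7 and 21 CPM in ATM KO tumors (0.41 ± 0.17, 95% interval 0.01 to 0.80, edgeR adjusted p = 0.208). The split was the same, with ATM KO tumors 1 and 2 high and ATM KO tumor 3 at the control level. Mvd, which decarboxylates mevalonate diphosphate, was at 23.2, 25 and 23.6 CPM in vector control tumors and at 36.0, 31.2 and 23.6 CPM in ATM KO tumors. Pmvk, the kinase between Mvk and Mvd, was at 12.2 to 15.4 CPM in vector control and 14.6 to 17.9 CPM in ATM KO tumors. Fdps, which makes farnesyl diphosphate, was at 11.1 to 13.7 and 11.6 to 18.1 CPM, and Idi1, the isomerase ahead of it, at 1.83 to 2.73 and 1.98 to 3.98 CPM. Fdps also shares 1124 exon bases with Gm43738 on the same strand. For Fdps and Idi1, 26.2% and 25.3% of the 50-base transcript stretches occur in other genes, so their low counts may leave out reads that align to several places.

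The sterol steps held the 3 called genes. Hsd17b7, the 3-ketosteroid reductase that acts in removing the methyl groups of lanosterol (chromosome 1, 169949535 to 169969241, GRCm38), was at 23.1, 23.3 and 18.7 CPM in vector control tumors and at 50.1, 47.7 and 45.4 CPM in ATM KO tumors. The groups were far apart, and the spread within each was narrow. Its mean rose from 21.7 ± 2.61 to 47.8 ± 2.31 CPM (SD, n = 3 per group), a fold of 2.20 (95% interval 1.84 to 2.63, log2 value 1.14 with an SE of 0.11, adjusted p = 0.00932 in edgeR). None of its 50-base transcript stretches occurs in another gene.

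Tm7sf2, a sterol C14 reductase of the step after Cyp51 (chromosome 19, 6062821 to 6068373, GRCm38), was at 7.34, 8 and 8.61 CPM in vector control tumors and at 18.7, 15.1 and 12.3 CPM in ATM KO tumors. All ATM KO tumors were above all controls, with ATM KO tumor 3 the nearest to them. The log2 fold change of Tm7sf2 was 0.94 ± 0.18 (95% interval 0.52 to 1.37, edgeR adjusted p = 0.0408), and limma-voom gave 0.91 with an adjusted p of 0.0577, so that call was lost. Tm7sf2 shares 532 exon bases with Vps51 on the same strand, and Vps51 had a log2 fold change of -0.00 ± 0.07 (edgeR adjusted p = 0.992). Lbr, the other sterol C14 reductase, was at 77.3, 95.8 and 92.6 CPM in vector control and at 84.9, 91 and 72.1 CPM in ATM KO tumors, with overlapping groups (-0.10 ± 0.12, edgeR adjusted p = 0.692). Sqle, the squalene epoxidase that oxidizes squalene ahead of ring closure (chromosome 15, 59315077 to 59331192, GRCm38), was at 102, 105 and 107 CPM in vector control tumors and at 166, 161 and 129 CPM in ATM KO tumors. The groups did not overlap, and ATM KO tumor 3 again had the lowest of the ATM KO values. The fold of Sqle was 1.45 (95% interval 1.22 to 1.73, log2 fold change 0.54 ± 0.10, edgeR adjusted p = 0.0427), and without vector control tumor 1 its adjusted p was 0.051.

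Dhcr7, the reductase of the last step that yields cholesterol, came close to the threshold. It was at 117, 97.1 and 102 CPM in vector control tumors and at 161, 170 and 130 CPM in ATM KO tumors, so the groups did not overlap. The log2 fold change of Dhcr7 was 0.55 ± 0.12 (95% interval 0.25 to 0.84), with an adjusted p of 0.0585 in edgeR and 0.00155 in DESeq2. Ebp, the sterol isomerase that moves the ring double bond, was at 55.8, 53.8 and 55.9 CPM in vector control tumors and at 50.8, 47.7 and 41.9 CPM in ATM KO tumors, the only sterol gene with all ATM KO tumors below the controls (-0.24 ± 0.09, edgeR adjusted p = 0.165).

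The other 6 sterol genes overlapped between the groups and were not called by edgeR, DESeq2 or limma-voom. Their log2 fold changes lay between -0.05 and 0.20. Cyp51, which removes the C14 methyl group of lanosterol, was at 125 to 157 CPM in vector control and 127 to 189 CPM in ATM KO tumors. Lss, the cyclase that makes lanosterol, was at 56.7 to 60.9 and 51.7 to 67.9 CPM. Nsdhl, a dehydrogenase of the C4 demethylation, was at 35.2 to 43.1 and 40.3 to 49.7 CPM. The remaining ones, Fdft1 (squalene synthase), Msmo1 (the C4 methyl oxidase) and Sc5d (the C5 desaturase), had log2 fold changes of -0.03, -0.03 and -0.05. The 95% intervals of these differences were -0.28 to 0.22 for Fdft1, -0.34 to 0.28 for Msmo1 and -0.29 to 0.19 for Sc5d, and their sign changed under other scaling or without single tumors. Fdft1 shares 774 exon bases with Ctsb on the opposite strand, and Cyp51 shares 166 with Akap9. The strand setting of the counting was not stated, so reads of these overlaps may not be separated. Hsd17b7 and its partners in C4 demethylation, Msmo1 and Nsdhl, therefore had log2 fold changes of 1.14, -0.03 and 0.19 in the same tumors, and the differences among these genes were not tested.

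**Figure D2:**
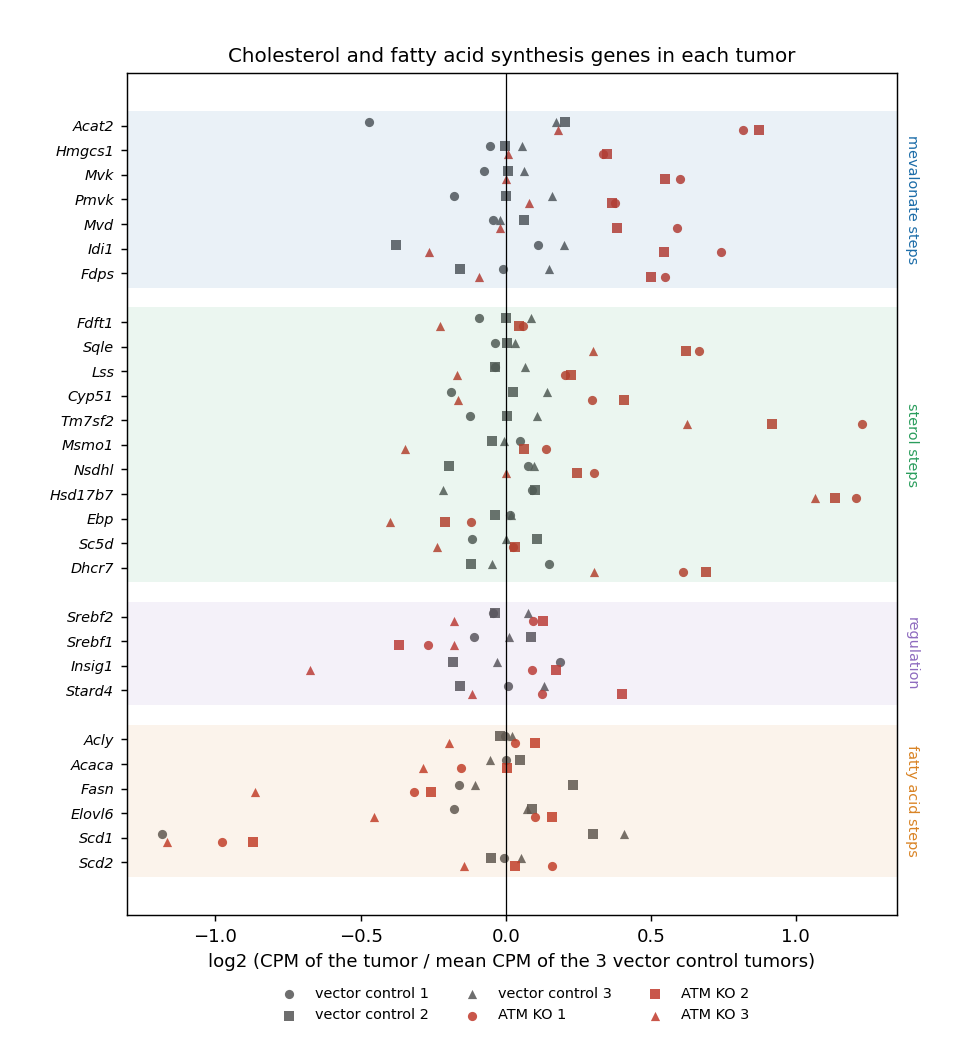
Log2 ratio of each tumor's CPM to the mean of the 3 vector control tumors (x axis) for the 28 genes by role, with grey symbols for vector control and red symbols for ATM KO tumors, and the symbol shape giving the tumor number. ATM KO tumor 3 (red triangles) is the lowest ATM KO tumor in 27 of the 28 genes.

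Among the ATM KO tumors, tumor 3 had the lowest value of the 3 ATM KO tumors in 27 of the 28 genes, all but Srebf1, whereas it was the lowest in 38.3% of all genes tested, ATM KO tumor 1 in 30.2% and ATM KO tumor 2 in 31.6%. The median log2 ratio to the control mean over the 28 genes was 0.18 in ATM KO tumor 1, 0.24 in ATM KO tumor 2 and -0.16 in ATM KO tumor 3. In summed level, the mevalonate genes reached 327, 324 and 242 CPM in ATM KO tumors 1, 2 and 3, beside 225 to 251 CPM in the vector control tumors. The sterol genes summed to 944, 945 and 735 CPM, beside 718 to 748 CPM. Among the marker lists, skeletal muscle differed between these tumors, with sums of 2982, 8268 and 690 CPM in ATM KO tumors 1, 2 and 3. The vector control tumors had muscle sums of 28.3, 74.6 and 8226 CPM, and the part of muscle tissue in the values was not tested. Without ATM KO tumor 3 the median log2 fold change of the 28 genes was 0.25, and without ATM KO tumor 2 it was 0.02.

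Of the 4 genes of regulation and transport none was called by edgeR. Srebf2, which encodes SREBP-2, was at 237, 238 and 258 CPM in vector control tumors and at 261, 267 and 216 CPM in ATM KO tumors, with ATM KO tumor 3 lowest of all and a 95% interval of the log2 difference of -0.22 to 0.26. Srebf1, which encodes SREBP-1, was at 103, 118 and 112 CPM in vector control tumors and at 92.1, 86.1 and 98.0 CPM in ATM KO tumors. All ATM KO values of Srebf1 were below the controls, with a log2 fold change of -0.27 ± 0.08 and an adjusted p of 0.121 in edgeR and 0.0367 in DESeq2. Srebf1 shares 109 exon bases with Rai1 on the opposite strand. Insig1, the sterol-dependent retention protein, was at 106, 82.1 and 91.3 CPM in vector control and at 99.3, 105 and 58.4 CPM in ATM KO tumors, a log2 difference of -0.09 ± 0.23 that became 0.14 without ATM KO tumor 3. Stard4, a carrier of cholesterol between membranes, was at 86.1, 76.8 and 93.8 CPM in vector control and at 93.3, 113 and 78.9 CPM in ATM KO tumors (0.15 ± 0.14, edgeR adjusted p = 0.602). The groups overlapped in 3 of these 4 genes.

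The log2 fold changes of the fatty acid genes ran from -1.0 to 0.02 with 5 of 6 below 0, and none passed in edgeR (unadjusted p under 0.05 in 0 higher and 1 lower gene, and 0 called by DESeq2 or limma-voom). Fasn, the fatty acid synthase, was at 674, 884 and 700 CPM in vector control tumors and at 605, 629 and 414 CPM in ATM KO tumors. The groups did not overlap, with ATM KO tumor 3 the lowest. The log2 fold change of Fasn was -0.45 ± 0.19 (fold 0.730, 95% interval 0.533 to 0.999, edgeR adjusted p = 0.216). Acly, the lyase that supplies cytosolic acetyl-CoA, was at 512, 505 and 520 CPM in vector control and at 524, 550 and 447 CPM in ATM KO tumors. The 95% interval of its log2 difference was -0.24 to 0.21. Acaca, the carboxylase that makes malonyl-CoA, was at 92.6 to 99.6 and 78.9 to 96.5 CPM (interval -0.35 to 0.07), and 29.2% of its 50-base transcript stretches also occur in Gm5182. Elovl6, which lengthens palmitate, was at 48.4 to 58.3 and 40.0 to 61.2 CPM (interval -0.46 to 0.38).

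Scd1 and Scd2, both stearoyl-CoA desaturases, make monounsaturated from saturated fatty acids. Scd1 was at 168, 471 and 507 CPM in vector control tumors 1, 2 and 3 and at 194, 209 and 170 CPM in ATM KO tumors 1, 2 and 3. Vector control tumor 1 was as low as the ATM KO tumors, and only vector control tumors 2 and 3 were high. The log2 fold change of Scd1 was -1.0 ± 0.41 (95% interval -2.01 to 0.01, edgeR adjusted p = 0.221), and without vector control tumor 1 it was -1.35 (adjusted p = 0.00458). Scd2 was at 1508, 1459 and 1571 CPM in vector control and at 1689, 1547 and 1368 CPM in ATM KO tumors, with a 95% interval of the log2 difference of -0.21 to 0.25. The ratio of Scd1 to Scd2 CPM was 0.112, 0.322 and 0.323 in the vector control tumors and 0.115, 0.135 and 0.124 in the ATM KO tumors (two-sided exact permutation p = 0.4 over 20 assignments, of which the smallest possible is 0.1).

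Adipocyte markers in sum were, like Scd1, highest in vector control tumors 2 and 3. Among the ATM KO tumors the order differed, with tumor 3 lowest in Scd1 (170 CPM) and highest in the marker sum. The 15 markers had summed levels of 115, 1018 and 1081 CPM in the vector control tumors, in the order 1 to 3, and of 204, 285 and 297 CPM in the ATM KO tumors. In vector control tumor 1, 7 of the 15 had no count, among them Adipoq, Plin1 and Cidec, which define fat cells. Adipoq was at 30.3 and 13.9 CPM in vector control tumors 2 and 3 and at 0.820, 0.358 and 5.51 CPM in the ATM KO tumors. Of the 13 markers tested, all 13 had a negative log2 fold change (median -2.71), and none was called by edgeR, DESeq2 or limma-voom. The part of fat tissue in the values of Scd1 and Fasn was not tested. Of 9 markers of sebaceous glands, which also express Scd1, Mgst1 made up nearly the whole sum, and the other 8 summed to 0.885 to 1.74 CPM in vector control and 1.27 to 1.86 CPM in ATM KO tumors.

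**Figure D3:**
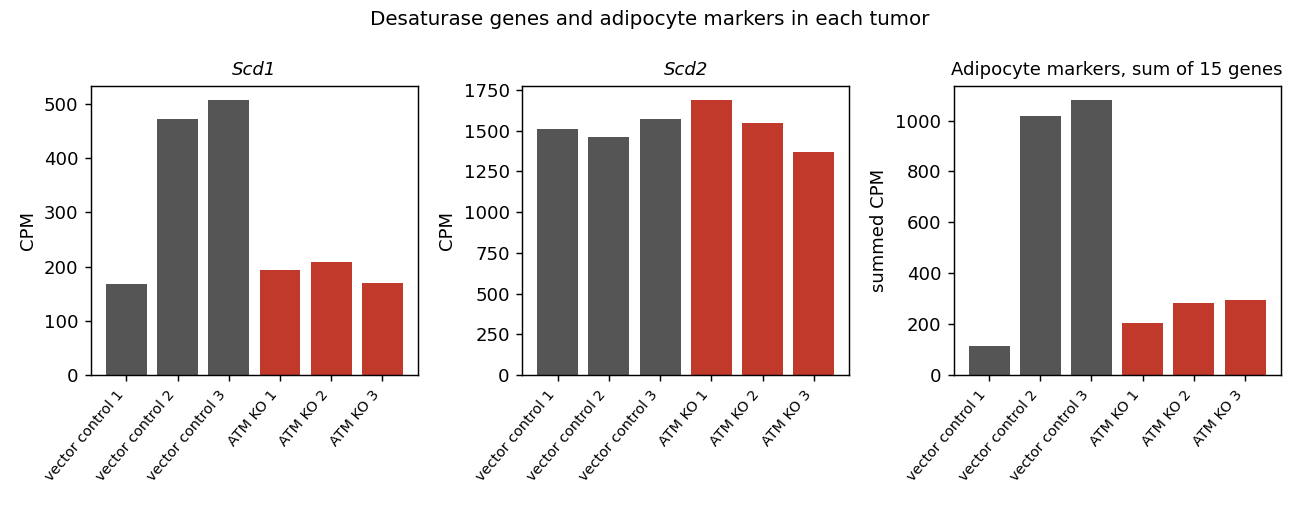
CPM of Scd1 and Scd2 and summed CPM of 15 adipocyte markers (y axes) in each of the 6 tumors, as bars. Vector control tumors 2 and 3 are high in Scd1 (471 and 507 CPM) and in adipocyte markers (1018 and 1081 CPM), while Scd2 lies between 1368 and 1689 CPM in every tumor.

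Per kilobase of exon, the levels of the 28 genes spanned a wide range. Scd2 was highest at 279 ± 19.8 CPM per kb (SD over 6 tumors), followed by Acly at 96.5 ± 6.54, Fasn at 59.5 ± 13.9 and Scd1 at 58.6 ± 32.3 CPM per kb. The ranges of Fasn (37.8 to 80.8 CPM per kb) and Scd1 (34.4 to 104 CPM per kb) overlapped, so their order is not resolved. Of the sterol genes Cyp51 was highest at 34.6 ± 5.80 CPM per kb, level with Hmgcs1 (34.2 ± 4.36) and Srebf2 (34.2 ± 2.70). The called genes were lower: Sqle was at 23.1 ± 5.19, Hsd17b7 at 6.81 ± 2.83 and Tm7sf2 at 2.65 ± 1.03 CPM per kb. Idi1 was lowest at 0.787 ± 0.239 CPM per kb. As 25.3% of its 50-base transcript stretches occur in other genes, its level may be understated. Lengths are of the exons of all annotated transcripts of a gene, merged.

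**Figure D4:**
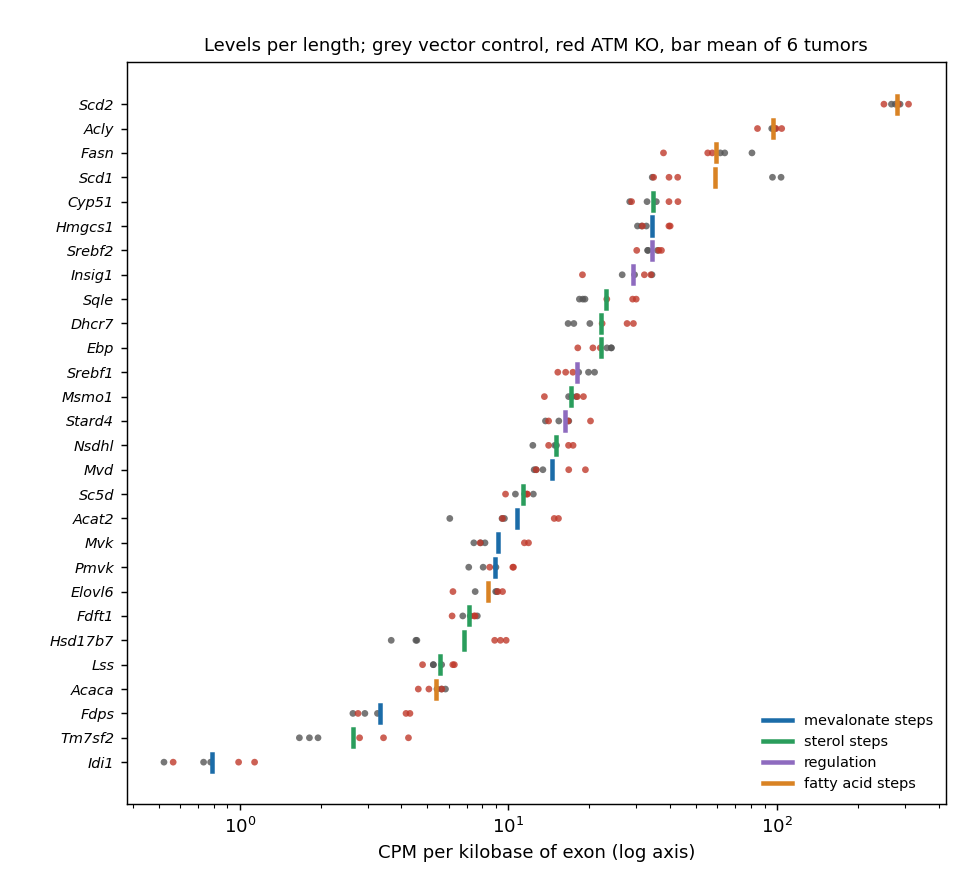
CPM per kilobase of exon (log x axis) of the 28 genes in order of their mean, with points for single tumors and a colored bar for the mean of 6 tumors. Scd2 is highest at 279 CPM per kb and Idi1 lowest at 0.787 CPM per kb.

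The genes lie on many chromosomes, and in some places the genes around a member also differed between the groups. For each gene, the median log2 fold change of the other tested genes within 5 Mb is given beside its own. Hsd17b7 (1.14), Tm7sf2 (0.94) and Sqle (0.54) had neighbor medians of 0.09, 0.08 and 0.00, over 107, 228 and 47 genes. The neighbors of Dhcr7 were mostly higher in ATM KO tumors, with a median of 0.36 over 94 genes, beside 0.55 for Dhcr7. The neighbors of Mvd (median -0.32 over 113 genes), Fdft1 (-0.34 over 66 genes) and Msmo1 (-0.37 over 34 genes) were mostly lower, beside 0.34, -0.03 and -0.03 for the genes themselves. For Scd1 and Scd2, which are neighbors of each other on chromosome 19, the median of the other genes was 0.06. The part of these regional differences in the values of single genes was not tested.

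**Figure D5:**
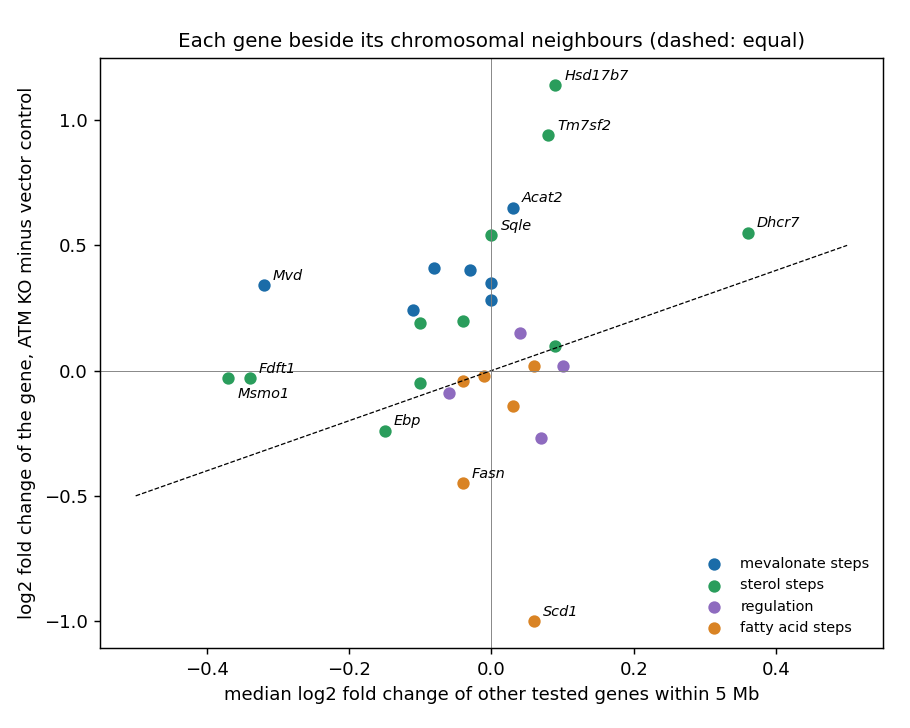
Log2 fold change of each of the 28 genes (y axis) against the median log2 fold change of the other tested genes within 5 Mb (x axis), colored by role, with a dashed line where the values are equal. Hsd17b7, Tm7sf2 and Sqle lie above neighbors whose medians are 0.00 to 0.09, and Dhcr7 lies near neighbors with a median of 0.36.

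Genes around the core pathways were counted against the same shares over all genes. These were 2.21% higher and 2.75% lower in edgeR, 6.50% and 8.12% in DESeq2 and 1.97% and 2.41% in limma-voom. At an unadjusted edgeR p under 0.05 the shares were 10.6% higher and 12.3% lower. Of 24 genes of sterol sensing and transport, edgeR called 0 higher and 1 lower (unadjusted p under 0.05 in 5 higher and 6 lower genes, 4 and 4 in DESeq2, 0 and 1 in limma-voom), and their median log2 fold change was -0.08. The lower gene was Mbtps1, the site-1 protease that makes the cut releasing SREBPs from their membrane precursors. It was at 204, 214 and 189 CPM in vector control tumors and at 121, 127 and 124 CPM in ATM KO tumors, with no overlap. The log2 fold change of Mbtps1 was -0.71 ± 0.07 (edgeR adjusted p = 0.01), beside a neighbor median of -0.30 over 97 genes. Mbtps2, the site-2 protease that makes the next cut, was at 59.7 ± 2.51 and 73.2 ± 3.67 CPM (SD, n = 3 per group, log2 fold change 0.29, edgeR adjusted p = 0.0621), beside a neighbor median of 0.55. Stard3, a cholesterol carrier of late endosomes, was at 44.9 ± 0.956 and 37.7 ± 0.497 CPM (-0.25, edgeR adjusted p = 0.0702). Insig2, the paralog of Insig1 and named here after its values were seen, was at 72.2, 108 and 121 CPM in vector control and at 169, 152 and 181 CPM in ATM KO tumors (0.74 ± 0.19, edgeR adjusted p = 0.085).

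A further list of 15 tested genes held 13 of the isoprenoid branch, which uses farnesyl diphosphate for ubiquinone, dolichol and protein prenylation, and also Lbr and the mitochondrial thiolase Acat1. None of the 15 was called by edgeR (unadjusted p under 0.05 in 1 higher and 3 lower genes, 1 and 1 in DESeq2, 0 and 0 in limma-voom). Those with the smallest p were Nus1 (-0.27), a subunit of the enzyme that makes dolichol precursors, and Fntb (0.41) and Fnta (-0.24), the subunits of farnesyltransferase. Of 27 further genes of fatty acid synthesis and activation, edgeR called 1 higher and 1 lower (unadjusted p under 0.05 in 3 higher and 2 lower genes, 3 and 1 in DESeq2, 1 and 1 in limma-voom), a share near that over all genes. Both are acyl-CoA synthetases, which activate fatty acids. Acsl4 rose from 91.8 ± 11 to 135 ± 6.78 CPM (log2 fold change 0.56 ± 0.10, edgeR adjusted p = 0.0378), beside a neighbor median of 0.54 over 30 genes. Acsl3 fell from 123 ± 0.838 to 85.7 ± 8.79 CPM (-0.53 ± 0.09, edgeR adjusted p = 0.0322), beside a neighbor median of 0.08 over 66 genes. The calls of Acsl3 and Acsl4 were both lost without vector control tumor 2, vector control tumor 3, or any of the 3 ATM KO tumors (adjusted p between 0.0574 and 0.148). Mbtps1 lost its call without vector control tumor 2, ATM KO tumor 1 or ATM KO tumor 2 (0.0574 to 0.0793). Me1, the malic enzyme that supplies NADPH for fatty acid synthesis, was at 38.4 ± 4.87 and 52.4 ± 1.70 CPM (0.45 ± 0.10, edgeR adjusted p = 0.0587).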

How the data were processed

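Total RNA of 6 tumors was sequenced, and the authors deposited unnormalized whole-number counts by gene for each tumor. The tools STAR, HTSeq, SAMtools, cutadapt and Trim Galore and the builds GRCm38 and mm10 are named, per the submitters' processing notes, without versions or roles. The sources used here do not state the strand setting of counting. All 55536 identifiers matched GENCODE M21, which gave coordinates and exon lengths. Summary rows without a gene were dropped (16.7% to 18.2% of reads listed outside genes, 1.21% to 1.38% on several genes). Counters of multiply aligned reads are listed at 0, so reads of near-identical copies may be missing.

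Genes were filtered with filterByExpr (minimum count 10, minimum total 15), scaled by TMM and tested with edgeR 4.0.16 (quasi-likelihood, robust dispersions, genotype as the term). SEs are the log2 fold change divided by the square root of F. DESeq2 1.42.0 and limma-voom (limma 3.58.1) were alternatives, beside other scalings, filters and a replicate block, and each tumor left out. The script was tested on simulated data. Libraries of the same group differed by more than counting noise (ratio of chi-square to its degrees of freedom 21.1 to 80.2). None was therefore a repeat sequencing of another library. The ratio cannot tell separate tumors from pieces of the same tumor. The members and lists were chosen with earlier results of these data known. Statistics were given in full for called members and the 2 with the smallest p per role, and in the other pathway lists for called genes and the 3 with the smallest p. Further members are given by range or by value.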

Additional observations from a re-analysis of the deposited data

How the results depend on the processing

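Hsd17b7, Tm7sf2 and Sqle kept a positive fold change under all 16 alternative fits. The number of members called higher was 3 in the fit reported, 0 to 3 with 1 tumor left out, 0 with the replicate block and 1 at an adjusted p below 0.01. The number called lower was 0, 0 to 1 with 1 tumor left out and 1 with DESeq2. Dhcr7 was called with library size as the only scaling (adjusted p = 0.0451), no filter (0.0144), at least 1 CPM in 3 libraries (0.0455), DESeq2 (0.00155), protein-coding genes only (0.0483) and without vector control tumor 1 (0.0376). Over all genes, 347 were called higher and 431 lower, against 504 and 356 with library size alone, 920 and 1150 in DESeq2, and 0 and 0 with the replicate block. The median over members stayed between 0.02 and 0.25 with 1 tumor left out.

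Tumor numbers are not stated to pair samples. Deviations of same-numbered tumors correlated at 0.0437, -0.272 and -0.42, and in no case were same-numbered tumors each other's best match. With the replicate block, Sqle (0.53), Tm7sf2 (0.92) and Hsd17b7 (1.14) had adjusted p-values of 0.144, 0.148 and 0.102.

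Members near 0 changed sign. With library size alone Fdft1 (0.02), Msmo1 (0.02), Acly (0.03) and Elovl6 (0.01) turned positive. Acly was at 0.00 without a filter, 0.01 with at least 1 CPM in 3 libraries and 0.02 in protein-coding genes, where Msmo1 was at 0.00. With 1 tumor left out, the range was -0.08 to 0.06 for Fdft1, -0.13 to 0.11 for Msmo1, -0.11 to 0.04 for Sc5d, -0.04 to 0.12 for Srebf2, -0.24 to 0.14 for Insig1, -0.08 to 0.07 for Acly, -0.15 to 0.14 for Elovl6 and -0.05 to 0.10 for Scd2. The cause was not tested.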
